A study of Homo sapiens with 6 samples.

Results

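The 10 genes described here are the transcriptional co-activators YAP1 and WWTR1 (which encodes TAZ), their DNA-binding partners TEAD1 and TEAD4, and 6 genes that YAP and TAZ are known to induce or that act on them: CTGF, CYR61, ANKRD1, AMOTL2, LATS2 and AJUBA. They were chosen by gene symbol from a table of 23368 genes, and all 10 symbols were in it. The cells were H2122, established from a human lung adenocarcinoma. They were transfected with control shRNA (3 libraries) or with LYCAT shRNA (3 libraries), which targets the gene now called LCLAT1, and RNA was sequenced 48 hours later. The control cells were the same line and also received an shRNA, so both groups share the transfection. Whether libraries of one group are separate cultures is not stated in the labels, and if they are not, the p-values reflect technical spread. The labels give no sequence of either shRNA and no second shRNA, so other effects of the shRNA cannot be told apart from those of less LCLAT1.

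YAP and TAZ shuttle between the cytoplasm and the nucleus, where they bind TEAD factors and switch on genes for matrix proteins, growth and their own inhibitors. The Hippo kinase cascade holds them back: MST kinases activate LATS kinases, which phosphorylate YAP and TAZ so that they are retained in the cytoplasm or degraded. Most of this control acts on the proteins and their location, which RNA levels do not measure. Transcripts of target genes such as CTGF and CYR61 are widely used as a readout of YAP and TAZ in epithelial and tumour cells.

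TEAD factors recognise the core letters GGAATG, or CATTCC on the other strand. Promoter windows of 300 bases (250 before to 50 after the start site, RefSeq, GRCh38.p14) were matched for 7 of the 10 genes, and 6 of these 7 held the core on either strand in at least 1 window: YAP1, CTGF, AMOTL2, ANKRD1, LATS2 and AJUBA. Counted by window, 6 of the 10 windows of these genes held it. Of all 27305 genes with a window, 16.7% held it, and of all 35116 windows, 14.0%. Several of the 10 genes were picked as known targets of YAP and TAZ, so these shares are a description. The 250 bases before the start site are shown for CTGF and ANKRD1, the target genes with more than 1 match, and for AMOTL2, the target gene nearest to the test's threshold in these data; capitals mark the core. All 3 lie on the minus strand, at chr6:131951373-131951622, chr10:90921088-90921337 and chr3:134374448-134374697.
CTGF: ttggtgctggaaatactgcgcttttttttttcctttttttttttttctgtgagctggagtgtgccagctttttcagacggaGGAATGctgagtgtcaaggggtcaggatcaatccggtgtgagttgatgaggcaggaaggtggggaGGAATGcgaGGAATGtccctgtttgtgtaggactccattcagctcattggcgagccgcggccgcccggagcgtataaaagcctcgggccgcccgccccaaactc
ANKRD1: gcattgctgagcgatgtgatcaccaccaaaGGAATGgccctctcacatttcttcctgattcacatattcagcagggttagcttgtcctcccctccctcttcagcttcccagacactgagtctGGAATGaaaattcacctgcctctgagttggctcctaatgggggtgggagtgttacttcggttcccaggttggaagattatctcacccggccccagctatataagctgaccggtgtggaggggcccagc
AMOTL2: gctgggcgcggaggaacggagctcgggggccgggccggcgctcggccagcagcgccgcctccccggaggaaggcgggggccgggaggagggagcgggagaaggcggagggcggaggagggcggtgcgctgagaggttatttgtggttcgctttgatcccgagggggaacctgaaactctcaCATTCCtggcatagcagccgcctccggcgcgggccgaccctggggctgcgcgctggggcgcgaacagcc
Counted from the start site to the first base of a match, CTGF held GGAATG at -169, -104 and -95, ANKRD1 at -220 and -128, and AMOTL2 held CATTCC at -69. Another window of AMOTL2, at a different start site, held 0 matches. A match of letters does not show that a TEAD binds there.

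Library totals ran from 3118946 to 4930079 counts, the smallest being LYCAT shRNA library 2. Counts were scaled to CPM (per 1000000 counts of the scaled library), and 3 counts equal 0.608 to 0.967 CPM, so CTGF, CYR61 and ANKRD1 were measured with little precision. LCLAT1, the target of the shRNA, was at 56.8, 61.2 and 65.3 CPM in controls and lower, at 18.9, 22.6 and 23.6 CPM, in every library labelled LYCAT shRNA (log2 -1.50, edgeR adjusted p = 1.15e-18). Epithelial markers were abundant, with EPCAM at 644 CPM in the controls. Control libraries 1 and 2 stood apart in fibroblast markers: the summed level of 10 such genes was 91.9, 135 and 32.3 CPM in controls 1 to 3, against 38.7, 19.7 and 32.2 CPM with LYCAT shRNA. Of these 10 markers, 3 collagen genes were abundant enough to test, and FAP had a count of 0 in every library. In bulk RNA fewer cells of a type and less RNA per cell cannot be told apart. The part of these markers in the results below was not tested, and calls and signs that change without control libraries 1 and 2 are given both ways.

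None of the tested genes of this set passed the test as changed with LYCAT shRNA, and ANKRD1 was too low to test. Of the 9 that were tested, 0 rose and 0 fell (edgeR quasi-likelihood test, adjusted p under 0.05), where 19.1% of all 11097 tested genes changed. That share would give 1.72 of 9 genes, so a count of 0 is close to the background and says nothing particular about these genes. At an unadjusted p under 0.05, 2 of the 9 passed, TEAD1 and AMOTL2, both lower, against 30.8% of all tested genes; DESeq2 and limma-voom also called 0 of them. The log2 fold changes were positive in 4 and negative in 5, and the median size, regardless of sign, was 0.15 against 0.16 for all tested genes.

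**Figure D1:**
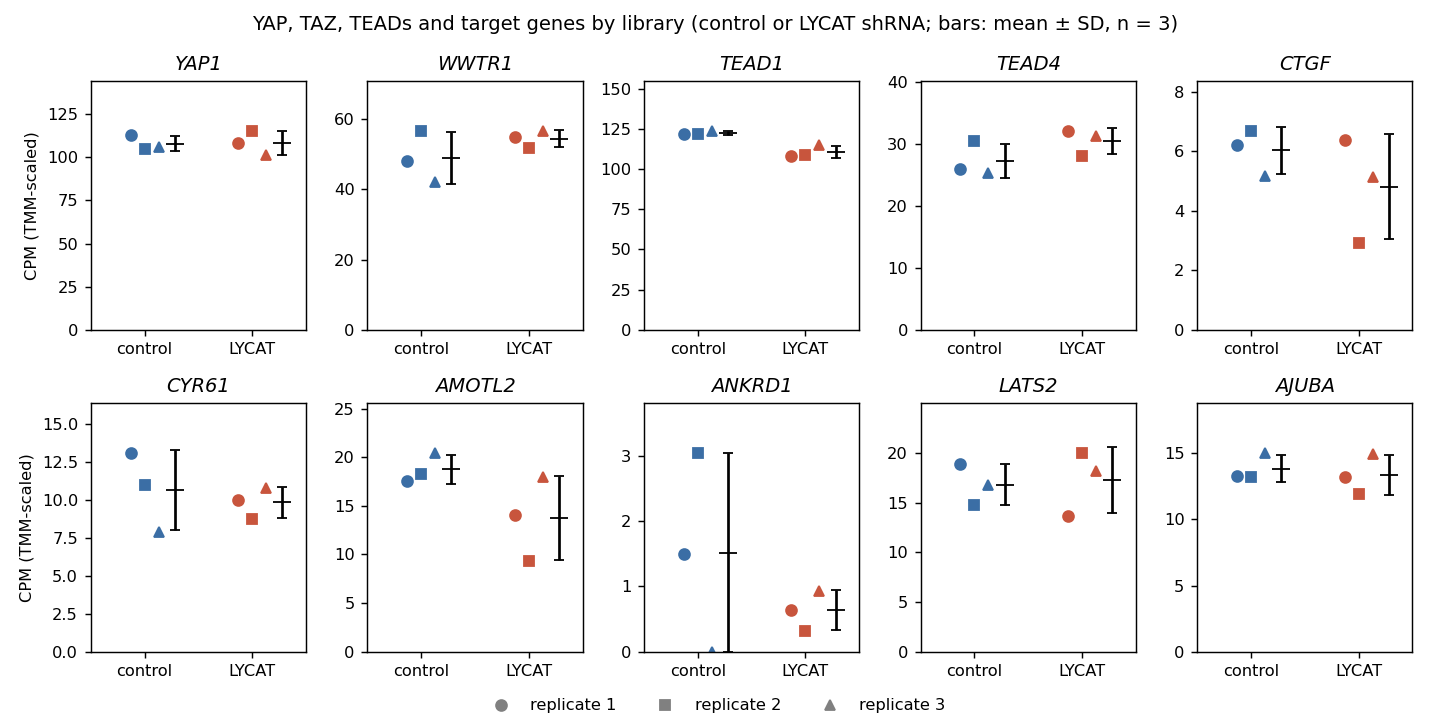
CPM of each of the 10 genes in the 3 control shRNA libraries (blue) and the 3 LYCAT shRNA libraries (red), with a linear axis from 0; symbols mark the replicate number and bars the mean and SD. The groups overlap in every panel except TEAD1, where the controls lie at 122 to 124 CPM and the LYCAT shRNA libraries at 108 to 115 CPM.

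YAP1 encodes the co-activator YAP. Controls held 113, 105 and 106 CPM of it, and libraries with LYCAT shRNA 108, 115 and 101 CPM. The highest and the lowest library both had LYCAT shRNA, and the control values lay between them. The means were 108 ± 4.45 and 108 ± 7.17 CPM (SD, n = 3 each). The log2 fold change was 0.00045 with a 95% interval of -0.14 to 0.15, which spans relative differences of -9.53% to 10.6% (edgeR adjusted p = 0.998).

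WWTR1 encodes TAZ, the close relative of YAP. Control libraries held 48.2, 56.7 and 42.1 CPM and LYCAT shRNA libraries 54.9, 51.9 and 56.7 CPM. Control library 2 was as high as the highest LYCAT shRNA library, and the groups overlapped. The mean went from 49.0 ± 7.35 to 54.5 ± 2.43 CPM (log2 0.15, 95% interval -0.05 to 0.35, edgeR adjusted p = 0.326). The size rested on single controls: the log2 fold change was 0.27 without control library 2 (edgeR adjusted p = 0.0577), 0.062 without control library 3 (0.763) and 0.38 without control libraries 1 and 2 (0.068). The ratio of WWTR1 to YAP1 counts within a library was 0.427, 0.543 and 0.397 in controls and 0.506, 0.450 and 0.561 with LYCAT shRNA, and these values overlapped (exact two-sided permutation test p = 0.4, where 3 against 3 libraries cannot go below 0.1). The table lists an antisense gene, WWTR1-AS1, with 0 to 3 counts per library; the counting is not stated to use strand, so reads of the pair cannot be told apart.

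TEAD1 encodes one of the TEAD factors through which YAP and TAZ reach DNA. It was the only one of the 10 genes whose groups did not overlap, as was the case for 32.8% of all tested genes. The control libraries held 122, 122 and 124 CPM, and the LYCAT shRNA libraries 108, 109 and 115 CPM. The mean was 123 ± 1.16 CPM in controls and 111 ± 3.85 CPM with LYCAT shRNA. The log2 fold change of -0.15 (SE 0.0695, 95% interval -0.28 to -0.0068) had an unadjusted p of 0.04 and an edgeR adjusted p of 0.138.

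TEAD4 encodes a second TEAD factor. Control libraries stood at 25.9, 30.4 and 25.4 CPM and LYCAT shRNA libraries at 32.1, 28.1 and 31.3 CPM. The groups overlapped through control library 2 and LYCAT shRNA library 2. The log2 fold change was 0.17 with a 95% interval of -0.08 to 0.41 (edgeR adjusted p = 0.383), and 0.28 without control libraries 1 and 2 (edgeR adjusted p = 0.364). The ratio of TEAD4 to TEAD1 counts within a library was 0.213, 0.249 and 0.205 in controls and 0.297, 0.257 and 0.272 with LYCAT shRNA. These ratios did not overlap between the groups. The exact two-sided permutation p was 0.1, below which 3 against 3 libraries cannot go.

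TEAD2 had means of 27.1 ± 1.39 and 30.3 ± 1.23 CPM (log2 0.16, edgeR adjusted p = 0.42), and TEAD3 19.1 ± 2.45 and 15.3 ± 2.78 CPM (log2 -0.29, edgeR adjusted p = 0.23). Of 8 tested genes among the 4 TEADs, YAP1, WWTR1 and the 4 VGLL cofactors, which compete with YAP and TAZ for TEADs, 0 passed (edgeR; 19.1% of all tested genes), 1 had an unadjusted p under 0.05 (30.8% of all tested genes), and VGLL1 and VGLL2 were too low to test.

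**Figure D2:**
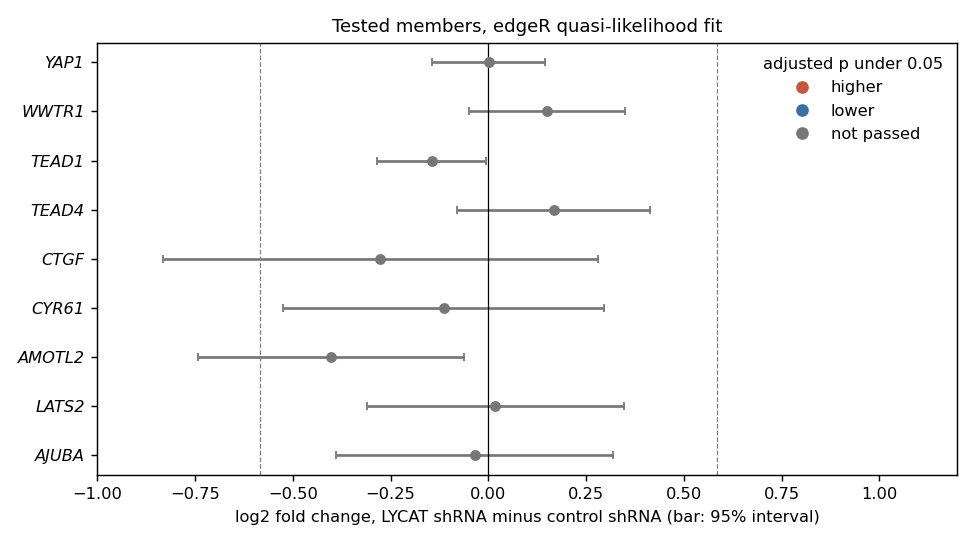
Log2 fold change of LYCAT shRNA against control shRNA for the 9 tested genes (points) with 95% intervals (bars) from the edgeR fit; dashed lines mark 1.5-fold in either direction. The intervals of 7 genes lie within 1.5-fold, and those of CTGF and AMOTL2 reach beyond it on the lower side.

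CTGF and CYR61 encode secreted matrix proteins of the CCN family and are the standard target genes of YAP and TAZ. CTGF stood at 6.22, 6.69 and 5.17 CPM in controls (29, 33 and 21 counts) and at 6.38, 2.90 and 5.14 CPM with LYCAT shRNA (30, 9 and 22 counts). LYCAT shRNA library 2, the shallowest, was the lowest, and LYCAT shRNA library 1 lay among the controls. The mean went from 6.03 ± 0.776 to 4.81 ± 1.76 CPM (log2 -0.28, 95% interval -0.83 to 0.28, edgeR adjusted p = 0.55). Without LYCAT shRNA library 2 the log2 fold change was -0.065 (edgeR adjusted p = 0.919), so this library carried most of the difference.

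CYR61 stood at 13.1, 10.9 and 7.88 CPM in controls (61, 54 and 32 counts) and at 9.99, 8.71 and 10.7 CPM with LYCAT shRNA (47, 27 and 46 counts). All 3 LYCAT shRNA libraries lay within the range of the controls. The mean went from 10.6 ± 2.61 to 9.81 ± 1.03 CPM (log2 -0.11, 95% interval -0.53 to 0.30, edgeR adjusted p = 0.761). Its lowest control, library 3, was also the control with the lowest fibroblast marker sum. Without control libraries 1 and 2 the log2 fold change was 0.33 for CYR61 (edgeR adjusted p = 0.569) and -0.044 for CTGF (edgeR adjusted p = 0.969), where the 1 control left is taken to vary as the other libraries do. Without control library 1 alone it was 0.058 for CYR61 (edgeR adjusted p = 0.912), so its sign rests on that library.

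Among the other CCN genes, NOV, a further secreted family member, had 12.9, 12.2 and 13.1 CPM in controls and 18.7, 13.9 and 15.6 CPM with LYCAT shRNA. The groups did not overlap, but the difference did not pass (log2 0.36, 95% interval 0.015 to 0.71, edgeR adjusted p = 0.141). WISP1 had counts of 0 to 3, and WISP2 and WISP3 had counts of 0 in all 6 libraries.

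ANKRD1, an ankyrin repeat protein of muscle and a strongly induced YAP target in many cultured cells, was too low to test. Its counts were 7, 15 and 0 in controls and 3, 1 and 4 with LYCAT shRNA. Control library 3 had none, while control libraries 1 and 2, those with high fibroblast markers, held all 22 control counts. With no filter on low counts the log2 fold change was -1.23 with a 95% interval of -2.53 to 0.075 (edgeR adjusted p = 0.251), which leaves its direction unsettled.

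**Figure D3:**
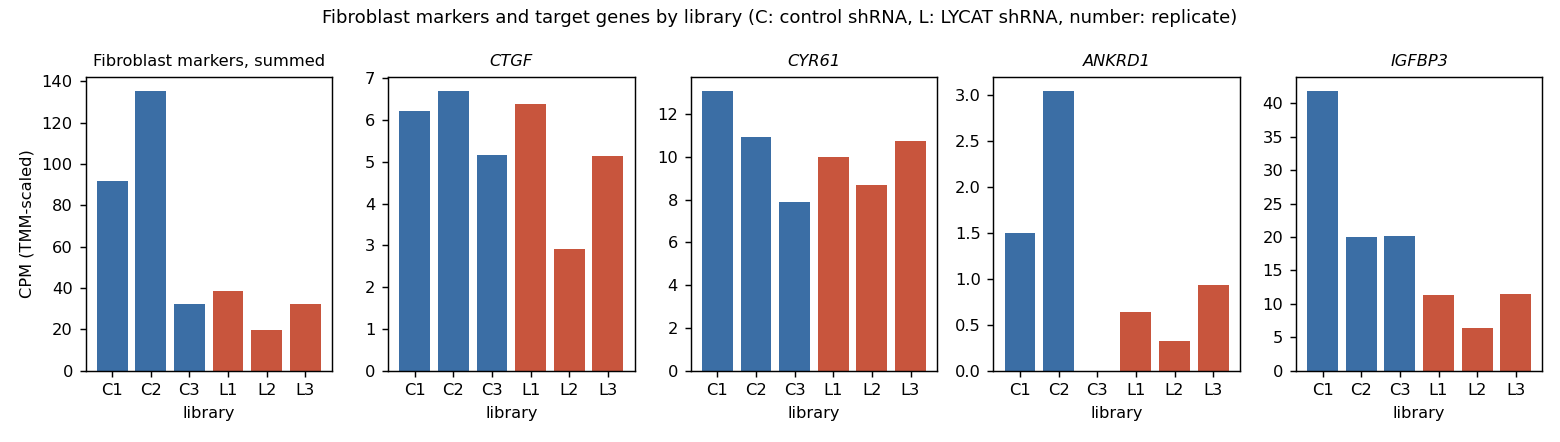
CPM in each library (C, control shRNA; L, LYCAT shRNA) of 10 fibroblast markers summed and of the YAP target genes CTGF, CYR61, ANKRD1 and IGFBP3, on linear axes from 0. Control libraries 1 and 2 are highest for the markers, at 91.9 and 135 CPM, and for CYR61 and ANKRD1. For CTGF, LYCAT shRNA library 1 (6.38 CPM) lies between control library 1 (6.22 CPM) and control library 2 (6.69 CPM). IGFBP3 is highest in control library 1.

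AMOTL2 encodes an angiomotin-like junction protein that binds YAP and holds it in the cytoplasm, and it is itself a YAP target. The control libraries held 17.6, 18.2 and 20.4 CPM and the LYCAT shRNA libraries 14.0, 9.35 and 18.0 CPM. LYCAT shRNA library 2 was the lowest, and library 3 reached into the control range. The mean was 18.8 ± 1.499 CPM in controls and 13.8 ± 4.32 CPM with LYCAT shRNA. The log2 fold change was -0.40 (SE 0.171, 95% interval -0.74 to -0.062, unadjusted p = 0.0211, edgeR adjusted p = 0.0893). Of the 9 tested genes it had the largest fold change and the smallest adjusted p. It passed as lower without LYCAT shRNA library 3 (log2 -0.63, edgeR adjusted p = 0.0254), and was at -0.23 without LYCAT shRNA library 2 (edgeR adjusted p = 0.445).

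The paralog AMOTL1 differed in the other direction and did not pass, with 39.2 ± 1.98 and 45.0 ± 1.81 CPM (log2 0.19, edgeR adjusted p = 0.205). AMOT, the founding member of this family, had counts of 3 to 12 and was not tested.

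LATS2 encodes a kinase that phosphorylates YAP and TAZ, and it is induced by them as a feedback. It stood at 18.9, 14.8 and 16.7 CPM in controls and at 13.6, 20.0 and 18.2 CPM with LYCAT shRNA. The lowest and the highest library both had LYCAT shRNA. The means were 16.8 ± 2.03 and 17.3 ± 3.30 CPM (log2 0.018, 95% interval -0.31 to 0.35, edgeR adjusted p = 0.959). LATS1, the paralog, had 3.22 ± 1.96 and 3.69 ± 1.67 CPM, with counts of 5 to 20 (log2 0.18, edgeR adjusted p = 0.81).

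AJUBA encodes a LIM domain protein of junctions that inhibits LATS kinases. It stood at 13.3, 13.2 and 15.02 CPM in controls and at 13.2, 11.9 and 14.9 CPM with LYCAT shRNA. These ranges nearly coincided, with means of 13.8 ± 1.04 and 13.4 ± 1.51 CPM (log2 -0.035, 95% interval -0.39 to 0.32, edgeR adjusted p = 0.924). Its relative LIMD1 had 25.1 ± 2.34 and 23.4 ± 2.19 CPM (log2 -0.11, edgeR adjusted p = 0.636), and WTIP, with counts of 6 to 11, was not tested.

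Levels were compared between genes per kilobase of exon (CPM divided by exon length, GENCODE v29, which may differ from the annotation the reads were counted on). In control cells the co-activators and TEADs were the most abundant of the 10 per kilobase: YAP1 19.2 ± 0.791, TEAD4 15.1 ± 1.53, TEAD1 13.2 ± 0.125 and WWTR1 9.14 ± 1.37 CPM per kilobase (SD, n = 3). The target and feedback genes followed with CYR61 at 4.64 ± 1.14, AMOTL2 at 3.92 ± 0.314, LATS2 at 3.05 ± 0.369, AJUBA at 2.90 ± 0.217, CTGF at 2.58 ± 0.332 and ANKRD1 at 0.765 ± 0.768 CPM per kilobase. Over all 6 libraries, each of the first 4 lay above the next gene in this order without overlap, and from CYR61 down each gene overlapped with the next. TEAD2 and TEAD3 held 10.1 ± 0.517 and 6.27 ± 0.806 CPM per kilobase in controls, so transcripts of all 4 TEADs were present.

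The genes upstream of YAP and TAZ were taken from lists of the pathway. Among 23 tested Hippo kinases and adaptors, 3 rose, 0 fell and 20 did not pass (edgeR), where 9.81% of all tested genes rose and 9.26% fell. The list median was 0.06 on the log2 scale. The share that changed, 13.0%, was all rises. Of all tested genes 9.81% rose and 19.1% changed in either direction. With only 3 calls, these are values of single genes. WWC1, which encodes the scaffold protein KIBRA, an activator of LATS kinases, had 41.7 ± 2.84 CPM in controls and rose 1.43-fold to 59.2 ± 7.34 CPM (edgeR adjusted p = 7.38e-05). MAP4K4, a kinase that can phosphorylate LATS, rose 1.36-fold from 156 ± 4.80 to 213 ± 6.39 CPM (edgeR adjusted p = 1.11e-08). TAOK3, of the kinase family that activates MST kinases, rose 1.29-fold from 52.8 ± 3.31 to 68.2 ± 4.27 CPM (edgeR adjusted p = 0.0018), and did not pass without control libraries 1 and 2 (log2 0.30, edgeR adjusted p = 0.116).

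Of 14 tested junction and LIM regulators, AMOTL2 and AJUBA among them, 1 rose and 1 fell (14.3% changed, against 19.1% of all tested genes), with a list median of -0.04. The share is near the background, so these calls are values of single genes. TRIP6, a LIM protein that binds LATS kinases, rose 1.12-fold from 282 ± 14.6 to 315 ± 14.3 CPM (edgeR adjusted p = 0.024), and INADL, a scaffold of the apical Crumbs complex, fell 1.28-fold from 37.3 ± 4.91 to 29.2 ± 4.09 CPM (edgeR adjusted p = 0.029). TRIP6 did not pass without control library 1 or LYCAT shRNA library 3 (edgeR adjusted p = 0.134 and 0.179), nor INADL without control library 1 or LYCAT shRNA library 2 or 3 (0.25, 0.0797 and 0.247). Without control libraries 1 and 2 the log2 fold change was 0.086 for TRIP6 (edgeR adjusted p = 0.466) and -0.19 for INADL (0.56). DESeq2 called neither (adjusted p = 0.0768 and 0.161).

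The STRIPAK complex is a phosphatase assembly that switches off MST kinases. Of its 12 tested genes 1 rose and 1 fell (16.7% changed, near the 19.1% of all tested genes), with a list median of -0.09. PPP2CA, the catalytic subunit of the phosphatase, rose 1.12-fold from 410 ± 10.1 to 460 ± 26.3 CPM (edgeR adjusted p = 0.0102; 0.152 without LYCAT shRNA library 3 and 0.167 without control libraries 1 and 2). PDCD10 fell 1.18-fold from 152 ± 1.46 to 129 ± 4.65 CPM (edgeR adjusted p = 0.00623; 0.0524 without control libraries 1 and 2).

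A published signature of 22 YAP target genes, compiled in tumours, holds 5 of the genes above: CTGF, CYR61, ANKRD1, AMOTL2 and LATS2. Of its 17 tested genes, 5 rose, 0 fell and 12 did not pass (edgeR), against 9.81% of all tested genes that rose. The list median was -0.11, because 10 of the 17 had a negative log2 fold change, and the 5 counts higher were the same number without control libraries 1 and 2. The 4 tested genes shared with the set described here were among the 12 that did not pass, together with most of the other signature genes. Whether these 4 differ from the 5 that rose was not tested.

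NT5E, a surface enzyme that makes adenosine, rose 6.14-fold, from 47.2, 51.7 and 54.2 CPM in controls to 306, 322 and 312 CPM with LYCAT shRNA (log2 2.62, SE 0.0691, edgeR adjusted p = 1.02e-46). GADD45A, a stress and DNA damage response gene that p53 also induces, rose 3.13-fold from 9.86, 7.70 and 7.39 to 27.9, 28.1 and 22.9 CPM (edgeR adjusted p = 1.25e-12). F3, which encodes tissue factor, the trigger of coagulation, rose 2.47-fold from 12.2, 8.31 and 13.5 to 24.0, 32.9 and 27.8 CPM (edgeR adjusted p = 1.13e-09). For these 3 genes the groups lay far apart in every library.
FJX1, a secreted regulator related to four-jointed of the fly, rose 1.43-fold from 23.2 ± 0.674 to 32.8 ± 3.89 CPM (edgeR adjusted p = 0.00147). ASAP1, an Arf GTPase-activating protein named after its value was seen, rose 1.21-fold from 104 ± 0.938 to 126 ± 6.52 CPM (edgeR adjusted p = 0.00192). Promoter windows were matched for 3 of the 5 genes that rose, NT5E, F3 and FJX1, and 0 of these 3 held GGAATG or CATTCC, where 9 of 16 matched genes of the whole signature and 16.7% of all genes did; with 3 genes nothing is read from this.

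IGFBP3, a secreted binder of insulin-like growth factors named after its values were seen, had the largest negative log2 fold change of the signature. It stood at 41.8, 20.1 and 20.2 CPM in controls and at 11.3, 6.45 and 11.4 CPM with LYCAT shRNA. Control library 1 stood well above the other controls, and the groups did not overlap. The log2 fold change was -1.45 (95% interval -2.66 to -0.24, edgeR adjusted p = 0.108). It passed as lower with DESeq2 (adjusted p = 0.0136), with limma-voom (9.03e-05) and without control library 1 (log2 -1.001, edgeR adjusted p = 0.000148) or 3 (0.0338). Without control library 2 it did not pass (edgeR adjusted p = 0.0591). Nor did it pass without LYCAT shRNA library 1, 2 or 3 (edgeR adjusted p = 0.231, 0.203 and 0.243). Without control libraries 1 and 2 the log2 fold change was -1.005.

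**Figure D4:**
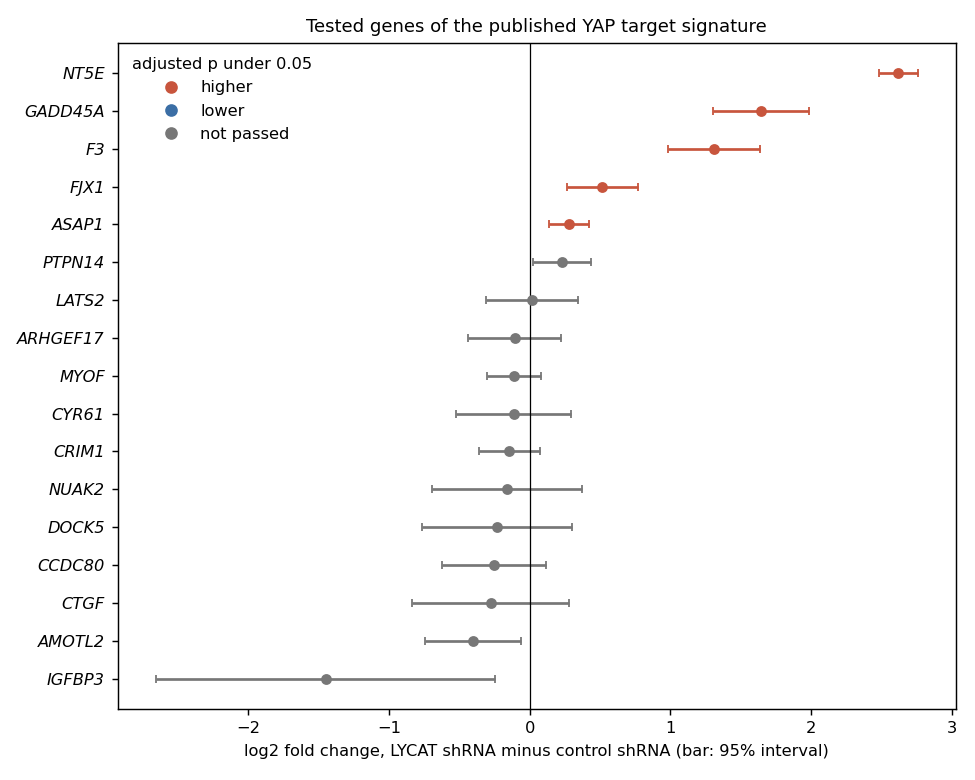
Log2 fold change of LYCAT shRNA against control shRNA (points) with 95% intervals (bars) for the 17 tested genes of the YAP target signature, ordered by fold change; red marks genes that passed as higher. NT5E, GADD45A, F3, FJX1 and ASAP1 passed, and CTGF, CYR61, AMOTL2 and LATS2 have intervals that reach no higher than 0.35.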

How the data were processed

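RNA-seq counts per gene of 6 H2122 libraries were used, 1 column per library. The deposited values are raw counts made by the authors. The tools featureCounts 1.5.1, Bowtie2, BWA 0.7.15 and bcl2fastq 2.17 and the builds hg19 and mm10 appear in the submitters' processing notes; their roles and the strand setting are not given there. Columns headed cycat were read as LYCAT shRNA, the only group besides the controls.

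In edgeR 4.0.16 under R 4.3.3, filterByExpr kept 11097 of 23368 genes and left out ANKRD1. Libraries were scaled by TMM, and CPM uses the scaled sizes. Groups were compared with edgeR's quasi-likelihood F test (robust=TRUE, group as the only term), with Benjamini-Hochberg adjustment over all tested genes and a threshold of 0.05. The standard error (SE) is the log2 fold change divided by the square root of F, and 95% intervals use it. Within-library ratios were compared by an exact two-sided permutation test. The fit was tested on simulated counts with changes of 1.5-fold or more. Smaller changes, and a share of changed genes as large as in these data, were not simulated. No list test was made, and lists are given by counts and medians.

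The genes and lists were chosen with earlier results of these data known. Named are the 10 genes, LCLAT1, their close paralogs, and from each list up to 4 changed genes per direction with the smallest adjusted p. Single values of some list genes are not reported here. Alternatives were other scalings and filters, DESeq2 1.42.0, limma-voom (limma 3.58.1), robust=FALSE, a replicate block, leaving out each library, and leaving out control libraries 1 and 2 together. Exon lengths came from GENCODE v29 and promoter windows from RefSeq (GRCh38.p14); no other coordinates are printed, since the notes name hg19.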

Additional observations from a re-analysis of the deposited data

How the results depend on the processing

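Of the 9 tested genes, 0 passed as higher and 0 as lower under every alternative run, except that 1, AMOTL2, passed as lower without LYCAT shRNA replicate 3; with 1 library left out the count of lower genes was thus 0 to 1. Over the 15 alternatives the log2 fold change ran from -0.038 to 0.051 for YAP1, 0.062 to 0.38 for WWTR1 (lowest adjusted p = 0.0577), 0.13 to 0.28 for TEAD4, -0.17 to -0.12 for TEAD1, -0.54 to -0.044 for CTGF, -0.27 to 0.33 for CYR61 and -0.63 to -0.23 for AMOTL2. Of all tested genes 2117 changed, 1193 with DESeq2 (635 higher, 558 lower) and 1129 without control libraries 1 and 2 (573 higher, 556 lower). Without those libraries 0 junction and LIM regulators rose or fell, 0 STRIPAK genes rose or fell, 4 SRF targets rose and 0 fell, and 1 epithelial marker and 1 signature gene fell. DESeq2 gave 0 junction and LIM regulators higher and 0 lower. The signature had 1 lower call, IGFBP3, with DESeq2, limma-voom, robust=FALSE, no filter on low counts and the replicate block, and with no filter 2 SRF targets fell. With 1 library left out, lower calls ranged from 0 to 1 among Hippo kinases, from 0 to 1 in the signature, from 1 to 2 among SRF targets and from 1 to 3 in STRIPAK; higher calls ranged from 0 to 1 in STRIPAK, and higher and lower calls each from 0 to 1 among junction and LIM regulators. List counts under alternatives were added after seeing the data. Samples share only a replicate number: deviations of same-numbered libraries correlated at 0.0048, -0.064 and -0.047, no sample correlated best with its own number, and the replicate block gave 2046 changed genes and 0 of the 9. Counts of 0 to 61 for ANKRD1, CTGF and CYR61 limit what their values can show; the causes of these shifts were not tested.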

Other observations

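Genes of the actin cytoskeleton that serum response factor, SRF, induces, a program that shares CTGF, CYR61 and ANKRD1 with YAP and TAZ, were measured beside them. Of 11 tested SRF targets 6 rose, 1 fell and 4 did not pass (edgeR), against 9.81% and 9.26% of all tested genes, and the list median was 0.18 on the log2 scale. With DESeq2 5 rose, and without control libraries 1 and 2, 4 rose: SRF and ACTN1, named after their values were seen, then did not pass (edgeR adjusted p = 0.436 and 0.08). TPM4, a tropomyosin, rose 1.42-fold from 263 ± 20.8 to 373 ± 0.680 CPM (edgeR adjusted p = 4.28e-12). FHL2, a LIM domain co-regulator, rose 1.56-fold from 28.9 ± 5.66 to 45.2 ± 3.26 CPM (edgeR adjusted p = 2.07e-05), MYH9, a non-muscle myosin, 1.195-fold (edgeR adjusted p = 0.00017), and VCL, which encodes vinculin of focal adhesions, 1.23-fold (edgeR adjusted p = 0.000711). TAGLN, an actin-binding protein of smooth muscle and fibroblasts, fell 2.31-fold from 16.3, 17.0 and 11.6 to 7.44, 4.51 and 7.01 CPM (edgeR adjusted p = 7.35e-06). Its control values were highest in libraries 1 and 2, where fibroblast markers summed to 91.9 and 135 CPM, and without these libraries it did not pass (log2 -0.83, edgeR adjusted p = 0.0824). Whether the SRF targets differ from CTGF and CYR61 was not tested.

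Epithelial markers gave 4 lower and 0 higher calls among 9 tested, against 9.26% and 9.81% of all tested genes, with a median of -0.14. The other 5 did not pass. Among these was the only marker with a positive log2 fold change, 0.63, the largest in size of the 9. The 4 lower were KRT8 1.35-fold, KRT7 1.23-fold and KRT18 1.17-fold, keratins of simple epithelia, and CDH1, E-cadherin, 1.201-fold (edgeR adjusted p = 0.000132, 1.21e-05, 0.00178 and 0.0345). CDH1 did not pass with DESeq2 (adjusted p = 0.153) or without control library 1 or 3 or any one LYCAT shRNA library (edgeR adjusted p = 0.0559 to 0.237). Without control libraries 1 and 2 only KRT7 passed among the 4.

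As a description over 6 libraries, the genes of at least 5 CPM whose log2 CPM followed CTGF most closely, among 9958, were GAS8 (Pearson r = 0.996), DOCK5 (0.985), also of the YAP signature, and ANK3 (0.98). For CYR61 they were CLCN5 (0.995), TBC1D1 (0.981) and SLC30A5 (0.967). All share the same libraries and none of these 6 genes passed the test between groups. The values are the highest of 9958 correlations over only 6 libraries. Counts per library were 9 to 33 for CTGF and 27 to 61 for CYR61, so nothing is read from the likeness.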
